A study of Mus musculus with 6 samples.

Results

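The genes described are the oocyte differentiation factors and zona pellucida genes of the mouse, chosen by name: Figla, Nobox, Sohlh1, Sohlh2, Lhx8, Taf4b, Gdf9, Zp1, Zp2 and Zp3. These 10 genes were taken from the 35974 gene names in the data, and the counts of all transcripts with the same gene name were added up in each of the 6 pools. RNA was sequenced from whole ovaries of C57BL/6J embryos at E15.5. Their mothers had been given either panobinostat (PB), an inhibitor of histone deacetylases, or the solvent alone. The aim was to ask how the exposure alters gene expression in the fetal ovary. PB-exposed embryos came from mothers dosed at 5 mg/kg between E6.5 and E15.5, and control embryos came from mothers given DMSO and water over the same period. The study's methods describe dosing on alternate days, and the sample labels a dose per day. Each group held 3 pools of ovaries, of 4 ovaries each by the labels, of 6 to 8 by the design text and of 8 or more by the methods, so the p-values measure the spread between pools and not between embryos. The design text names all 6 libraries, those of the control group included, as coming from exposed mice, and the groups used here follow the sample labels.

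Female germ cells of the mouse enter meiosis in the fetal ovary and are enclosed in primordial follicles around birth. The germ cell factors FIGLA, NOBOX, SOHLH1, SOHLH2 and LHX8, together with the TFIID subunit TAF4B, are each needed for a normal stock of oocytes or follicles. The growth factor GDF9 and the zona pellucida proteins ZP1, ZP2 and ZP3 are made in quantity by growing oocytes after birth, the first to signal to granulosa cells and the zona proteins to build the egg coat.

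The deposited counts summed to 103627570, 125985399 and 97165644 in control 1, 2 and 3 and to 100650825, 104696262 and 120143093 in PB 1, 2 and 3. At this depth a gene with a count of 0 may still have a level of up to 3 counts, which is 0.0257 to 0.0319 CPM (counts scaled to a library of 1e+06) depending on the pool, a floor that covers counting error only. The sums of the 10 genes use plain totals of gene counts, whereas the floor and other levels in CPM use TMM-scaled library sizes. The 10 genes together contributed 140.1, 101 and 135 CPM in control 1, 2 and 3 and 154, 97.3 and 173 CPM in PB 1, 2 and 3. Sohlh2 and Taf4b supplied 93.0% of these counts and Figla 4.22%. Values after ± are the SD over the 3 pools of a group, and intervals are 95% confidence intervals.

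Markers were used to check what the pools contained. Of 10 markers of pregranulosa cells, the somatic cells that will surround the oocytes, all passed the filter on low counts, and their summed level was 1697, 1612 and 1566 CPM in control pools against 1761, 1708 and 1544 CPM in PB-exposed ovaries, with Kitl the most abundant per length. Some germ cell genes varied more between pools. The germ cell genes Ddx4 and Dazl summed to 419.8, 300.5 and 423 CPM in control pools against 428, 269 and 436 CPM in PB-exposed ovaries. PB 2, followed by control 2, was thus the pool with the least RNA of these genes. In such bulk RNA, fewer germ cells and less RNA per germ cell cannot be told apart. PB 2 was also the lowest pool for 5 of the 7 genes of interest that could be tested.

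Levels of different genes were compared per transcript length, as TPM (counts divided by exon length and scaled to the same total in every pool). Sohlh2 stood highest, with a mean over the 6 pools of 32.9 TPM, and 3822 of the 35974 gene names reached at least that level. Taf4b followed with 25.2 TPM and Figla with 11.2 TPM. Sohlh2 exceeded Taf4b in every pool, by 1.03 to 1.72 times, although their ranges across pools overlapped (21.8 to 41.6 TPM and 17.4 to 35.8 TPM). Figla, at 7.48 to 17.0 TPM, lay just below the range of Taf4b. The remaining factors were scarcer, with 2.03 TPM for Sohlh1, 1.06 TPM for Gdf9, 0.430 TPM for Lhx8 and 0.120 TPM for Nobox. Among these, the ranges of neighbours in the order did not overlap. Zp3 had a mean of 0.0622 TPM, within the range of Nobox, and Zp1 and Zp2 came last, at 0.00306 and 0 TPM. Figla, Sohlh1, Sohlh2, Lhx8, Taf4b and Gdf9 were therefore measured well above the floor in every pool, and Nobox and the zona genes were not.

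**Figure D1:**
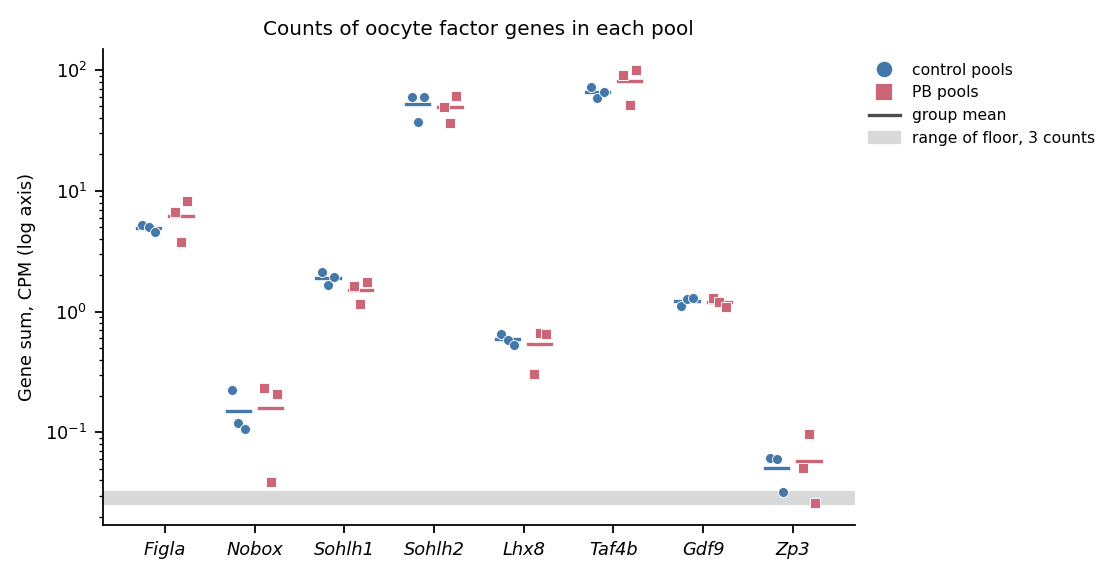
Gene sums in CPM, on a log axis, of 8 of the genes in each of the 3 control pools (circles) and 3 PB pools (squares), with horizontal bars for the group means and a grey band for the floor of 3 counts. Control and PB pools overlap for every gene drawn, and Zp3 lies close to the floor. Zp1 and Zp2 are left out because they had 0 counts in at least 5 pools.

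Control and PB-exposed ovaries were then compared with edgeR's quasi-likelihood test over 19435 genes. Of the 10 genes, 7 passed the filter on low counts and 3, the zona genes, did not. None of the 7 was called at an FDR of at most 0.05 and a fold change of at least 2, against 3 of all genes tested (0.0154%). None had an unadjusted p-value under 0.05, whereas 867 of all genes did (4.46%), and with DESeq2, which called 0.0539% of all genes, the numbers for the 7 were also 0 and 0. The log2 fold change was above 0 for 3 of them and below 0 for 4, with a median of -0.03 beside 0.00 for all genes. No gene had all PB pools on the same side of all control pools, a pattern found in 10.7% of the genes tested.

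Figla encodes the basic helix-loop-helix factor that is required for primordial follicles to form and for the zona genes to be switched on. It was measured at 5.21, 5.00 and 4.53 CPM in control pools against 6.65, 3.78 and 8.22 CPM in PB-exposed ovaries. The control pools lay close together, and PB 1 and PB 3 stood above them while PB 2 stood below. The log2 fold change was 0.34 (interval -0.31 to 0.99, FDR = 0.888). It depended on which PB pool was left out. Without PB 1, PB 2 or PB 3 it was 0.28, 0.60 or 0.084, with unadjusted p-values of the edgeR quasi-likelihood fit over all genes of 0.419, 0.00468 and 0.751, and the lowest FDR was 0.210. In the deposited annotation, Figla lies on the plus strand of chromosome 6 from 86016474 to 86020996 (mm10) and has 4 transcripts. NM_012013.2, which starts at 86017191, held every count of the gene in the control pools and in PB 2. The other 3 transcripts start upstream, at or after 86016474, and had counts in PB 1 and PB 3 alone. NM_012013.2 was left with 83.9% of the counts of Figla in PB 1 and 93.7% in PB 3. These upstream transcripts did not pass the filter and were not tested with edgeR, and NM_012013.2 by itself gave 0.21 on the log2 scale (SE 0.31, FDR = 1.00).

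Taf4b encodes a germ cell form of a TFIID subunit, the complex that positions RNA polymerase II at promoters. Its values resembled those of Figla in their order, with 72.4, 59.1 and 66.0 CPM in control pools against 91.6, 51.6 and 99.6 CPM in PB-exposed ovaries. Again PB 1 and PB 3 were above every control pool and PB 2 was below them all, for a log2 fold change of 0.30 (interval -0.27 to 0.87, FDR = 0.888). Leaving out PB 1, PB 2 or PB 3 gave 0.19, 0.54 or 0.12, with unadjusted p-values of the same fit of 0.505, 0.00134 and 0.637, and the lowest FDR was 0.139. The size of the difference thus rested on single pools, as for Figla. The spread of Taf4b among the PB pools amounted to 31.8% of the mean. Its widely expressed paralogue Taf4 was steadier, at 28.4, 27.9 and 28.4 CPM in control pools against 26.7, 26.6 and 26.3 CPM in PB-exposed ovaries (log2 fold change -0.09, FDR = 0.888). XM_006526281.3 held between 96.5% and 99.7% of the counts of Taf4b in each pool and gave 0.27 on the log2 scale (SE 0.26, FDR = 1.00). NM_001100449.1 held 0.485% over all pools and gave 0.54 (SE 0.47, FDR = 1.00). XM_006526282.2 had 255 counts in PB 1, 334 counts in PB 3 and 0 in the other 4 pools, 1.28% of the counts of the gene. Like the upstream transcripts of Figla it did not pass the filter and was not tested with edgeR, and DESeq2 did not call it (FDR = 0.226). The antisense gene 4930543D07Rik overlaps the Taf4b locus on chromosome 18, which spans 14783201 to 14960424, and the libraries kept the strand of the RNA.

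Sohlh1 and Sohlh2 encode basic helix-loop-helix factors that can pair with each other and act in early germ cells of both sexes. Sohlh2 was measured at 59.5, 37.2 and 59.8 CPM in control pools against 49.5, 36.6 and 60.9 CPM in PB-exposed ovaries. Its lowest pools were control 2 and PB 2, the same that were lowest for Ddx4 and Dazl, and the groups covered nearly the same range. The log2 fold change was -0.09 (interval -0.67 to 0.49, FDR = 0.955), and 0.082 without PB 2. NM_028937.3, which spans the gene from 55182044 to 55209957 on chromosome 3, held at least 96.7% of its counts in every pool and gave the same value of -0.09 (SE 0.27, FDR = 1.00).

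Sohlh1 was the gene of the 7 with the smallest unadjusted p-value, 0.177. It was measured at 2.13, 1.65 and 1.92 CPM in control pools against 1.64, 1.14 and 1.76 CPM in PB-exposed ovaries. PB 2 was again lowest, and control 2 lay within the range of the PB pools. The log2 fold change was -0.32 (interval -0.83 to 0.19, FDR = 0.888), and -0.16 without PB 2. Sohlh1 thus differed from Sohlh2 in abundance, since Sohlh2 exceeded it 12.2 to 18.9 times per length, depending on the pool.

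The counts of Sohlh1 were divided over 3 of its 4 transcripts, which differ in where they start. The gene lies on the minus strand of chromosome 2 from 25842995 to 25847248. The full-length NM_001001714.1 starts at 25847248, and XM_006497875.3 starts 468 bases downstream of it, inside the gene, and lacks the exon from 25846209 to 25846356. XM_006497875.3 had 145, 110 and 121 counts in control and 54, 59 and 74 counts in PB-exposed ovaries. Every PB pool was below every control pool, and the transcript's share of the gene was 69.4%, 57.3% and 66.9% in control and 33.1%, 50.4% and 36.1% in PB-exposed ovaries. Its log2 fold change was -1.07 (SE 0.31) with an unadjusted p-value of 0.0186 and an edgeR FDR of 1.00. DESeq2 gave an FDR of 0.0142, and the alternatives lay between that value and 1. Neither test was reliable for single transcripts: on simulated counts edgeR did not recover the changed transcripts, and most transcripts that DESeq2 called had not been changed. The counts and shares of transcripts are therefore given as a description, and no difference in a transcript is claimed from these FDRs. NM_001001714.1 had 38, 74 and 27 counts in control and 96, 29 and 86 counts in PB-exposed ovaries, and these ranges overlapped. XM_006497874.2, which starts 231 bases downstream of NM_001001714.1, had 26, 8 and 33 counts against 13, 29 and 45.

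Nobox and Lhx8 encode homeodomain factors of oocytes that act in primordial follicle formation and survival. Nobox was close to the limit of measurement, with 22, 14 and 10 counts in control and 23, 4 and 24 counts in PB-exposed ovaries. The lowest value, in PB 2, was 1 count above the floor. The log2 fold change of 0.09 had an interval from -1.52 to 1.70 (FDR = 0.987), so a 2-fold difference in either direction lies inside the interval. Lhx8 had 64, 68 and 50 counts in control and 30, 68 and 76 counts in PB-exposed ovaries. PB 1 was low and the other PB pools lay at or above the control pools, for a log2 fold change of -0.12 (interval -0.94 to 0.70, FDR = 0.957). Nobox lies on chromosome 6 from 43303674 to 43310072 and Lhx8 on chromosome 3 from 154306288 to 154330560, both on the minus strand. For both genes, different transcripts took the counts in different pools. In Lhx8, XM_006501072.3 held all counts in 5 pools and XM_017319470.1 all 76 counts of PB 3. In Nobox, NM_130869.3 held all counts in control 1, control 2 and PB 1, and XM_017321447.1 all counts in control 3 and PB 2.

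Gdf9 encodes the growth factor through which oocytes act on granulosa cells. It had 109, 147 and 121 counts in control and 128, 123 and 126 counts in PB-exposed ovaries, 377 in each group. This was the steadiest of the 7 genes between pools, with levels of 1.11, 1.26 and 1.28 CPM in control pools against 1.29, 1.20 and 1.08 CPM in PB-exposed ovaries. The highest pool exceeded the lowest 1.19 times, while for Taf4b this ratio was 1.93. Unlike most of the other genes, Gdf9 was not lowest in PB 2. The log2 fold change was -0.03 (interval -0.43 to 0.37, FDR = 0.979).

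Under this even total, the deposited counts of Gdf9 were divided differently over its 3 transcripts. NM_008110.2 starts at 53433286 on the plus strand of chromosome 11, and XM_006532220.3 and XM_006532221.3 start upstream, at 53430988 and 53430967. All 3 share the last exon, from 53436616 to 53437903. NM_008110.2 had 0, 100 and 73 counts in control and 128, 123 and 121 counts in PB-exposed ovaries. XM_006532221.3, with 2 exons, had 16, 28 and 42 counts in control and 0 in every PB pool. XM_006532220.3, with 4 exons, had 93, 19 and 6 counts in control and 0, 0 and 5 in PB-exposed ovaries. The upstream transcripts thus had counts in every control pool, in very unequal amounts, and in PB 3 alone among the PB pools. Only control 1 lacked counts of NM_008110.2. In the edgeR test NM_008110.2 gave 1.11 on the log2 scale (interval -2.96 to 5.19, unadjusted p-value 0.516).

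XM_006532221.3 passed the filter through the control pools alone. Its control mean was 9.91 times the floor, which covers counting error only and sets no bound on how reads were assigned to transcripts. The edgeR test gave it an unadjusted p-value of 0.00278 and an FDR of 0.465. DESeq2 gave an FDR of 5.71e-05, and the alternatives lay between that value and 1, with the same limit on both tests. Counts of transcripts that share a start were then added up, an analysis chosen after these values were seen. The upstream start held 100%, 32.0% and 39.7% of the counts of Gdf9 in control and 0%, 0% and 3.97% in PB-exposed ovaries. This start, too, passed the filter through the control pools alone. Its log2 fold change was -5.38 (SE 1.40), a size that is uncertain because 2 PB pools had no count, with an unadjusted p-value of 0.0111 and an edgeR FDR of 1.00. Leaving out any pool but PB 3 gave -5.65 to -4.83. Without PB 3, which held all 5 counts of the PB pools, the fitted value was -9.11, which then depends on the prior count and is no bound. With DESeq2 the FDR was 0.00105, and other alternatives reached 1.00. The start of NM_008110.2 gave 1.11 on the log2 scale (SE 1.48), with an unadjusted edgeR p-value of 0.486. The tests of start sites were not tried on simulated counts. These counts rest on how StringTie assigned reads to overlapping transcripts, and the part of that step in the shares was not tested.

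**Figure D2:**
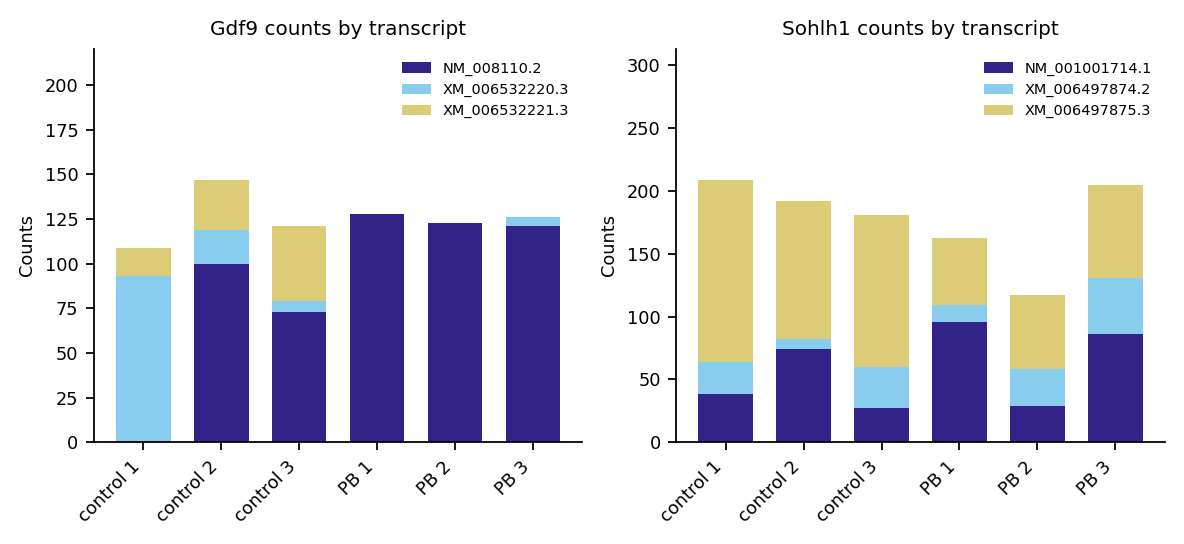
Counts of each transcript of Gdf9 and Sohlh1 in the 3 control and 3 PB pools, stacked to the gene sum. The bars of Gdf9 are of similar height, and XM_006532221.3 is missing from all PB pools. In Sohlh1, XM_006497875.3 ranges from 110 to 145 counts in control and from 54 to 74 counts in PB-exposed ovaries.

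Over all 27 transcripts of the 10 genes, 22 had a count in some pool and 11 passed the filter of the transcript test. None of the 11 was called by edgeR, against 17 of 51227 transcripts (0.0332%), and 2 had an unadjusted p-value under 0.05, beside 3.56% of all. DESeq2 gave an FDR for 18 and called 2 of them, namely XM_006497875.3 and XM_006532221.3, against 1.85% of all transcripts. It gave an unadjusted p-value for 20, of which 5 were under 0.05, beside 7.17% of all transcripts. Of these 5, XM_017321595.1 and XM_006526282.2 had 0 counts in every control pool and XM_006532221.3 had 0 in every PB pool. XM_006532220.3 and XM_006532221.3 are forms of Gdf9 with the same start. Most DESeq2 calls of transcripts on simulated counts were false, so no excess over all transcripts is claimed. The groups did not overlap in 3 of the 11, beside 9.95% of all transcripts, and these 3 belonged to Sohlh1 and Gdf9. The 2 transcripts of Gdf9 among them differed in opposite directions and have their last exon in common, so they are not separate observations. Of the 10 start sites of the genes that could be tested, 0 were called by edgeR, against 11 of 31266 (0.0352%), and DESeq2 called 2 of the 14 to which it gave an FDR, against 1.67% of all. The groups did not overlap in 3 of the 10 start sites, beside 10.2% of all, and 2 had an unadjusted p-value under 0.05 with edgeR, beside 4% of all. These start sites hold the counts of the same Sohlh1 and Gdf9 transcripts, so they add no separate observation. They were also chosen after the values of the transcripts were seen.

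**Figure D3:**
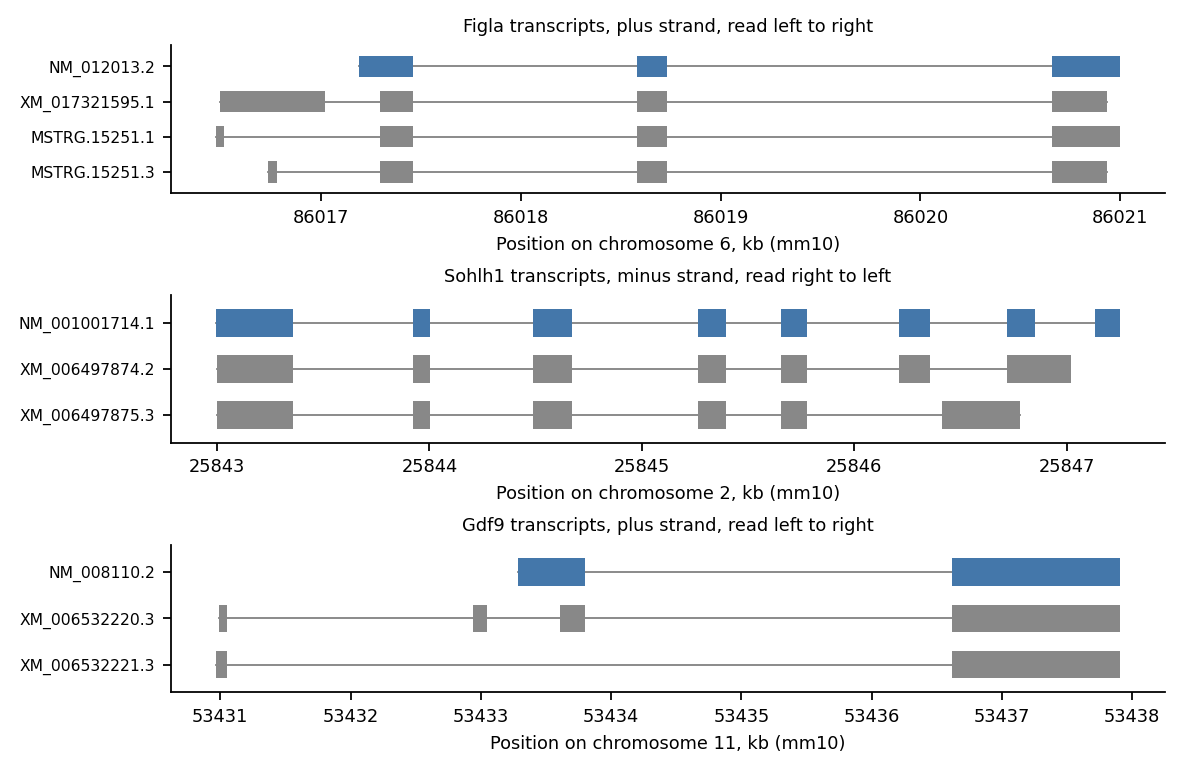
Exons (boxes) and introns (lines) of the transcripts with counts of Figla, Sohlh1 and Gdf9, by position in kb on mm10. The top transcript of each gene, in blue, is the curated RefSeq form. The Gdf9 forms in grey start upstream of it, those of Sohlh1 start downstream, and those of Figla start upstream.

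The zona genes were close to the limit of detection in both groups. Zp3 encodes the zona protein long known as a sperm receptor, and it had 6, 7 and 3 counts in control and 5, 10 and 3 counts in PB-exposed ovaries. These totals, 16 and 18 counts, came from NM_011776.1 alone. Zp1 had 3 counts in control 2, from NM_009580.2, and 0 in the other 5 pools, and no count of Zp2 was recorded in any pool. No fold change is given for the zona genes, and a difference between the groups was not detectable at this depth. Zp1 lies on chromosome 19 from 10914296 to 10920601, Zp2 on chromosome 7 from 120126772 to 120145414, and Zp3 on chromosome 5 from 135980105 to 135988624.

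Each level was also divided by the sum of the germ cell genes Ddx4 and Dazl in the same pool. This scale rests on the genes chosen, since other germ cell markers lay in both directions, such as Sycp3 (0.34 on the log2 scale) and Pou5f1 (-0.58). Sohlh2 amounted to 14.2%, 12.4% and 14.1% of that sum in control and to 11.6%, 13.6% and 14.0% in PB-exposed ovaries. On this scale the highest pool exceeded the lowest 1.23 times, compared with 1.66 times in CPM. Taf4b amounted to 17.2%, 19.7% and 15.6% in control and to 21.4%, 19.2% and 22.9% in PB-exposed ovaries, where only control 2 and PB 2 kept the groups from separating. Sohlh1 amounted to 0.507%, 0.548% and 0.455% in control and to 0.384%, 0.426% and 0.405% in PB-exposed ovaries. All PB pools of Sohlh1 were below all control pools by this measure, which was not tested. In a comparison added after seeing the data, the same held over 4 of the 7 germ cell markers taken alone and over their sum, while over Dppa3, Dnd1 and Pou5f1 the pools overlapped. For Taf4b the PB pools were above the control pools over Ddx4 alone and over the sum of the 7, and for Sohlh2 over Pou5f1 alone. The share of all genes without overlap was not taken for any of these ratios, so these tallies are a description. Figla, at 1.24%, 1.66% and 1.07% against 1.55%, 1.40% and 1.89%, still overlapped. For Gdf9 and Lhx8 the ratio spread the pools further apart, from 1.19 to 1.80 times and from 2.20 to 3.50 times between the highest and the lowest. For Nobox it went from 5.93 to 3.72 times.

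Partners and regulators of these factors were examined as a list of 25 genes, among them the E proteins TCF3, TCF4 and TCF12, which pair with helix-loop-helix factors, and the kinase KIT with its ligand. Of the 23 tested, 15 had a log2 fold change above 0 and 8 below, with a median of 0.05 beside 0.00 for all genes. None was called by edgeR or DESeq2, and 4 had an unadjusted p-value under 0.05 with edgeR, beside 4.46% of all genes, all of them lower in PB-exposed ovaries. Kit, the receptor on oocytes, was measured at 55.1, 51.8 and 53.3 CPM in control pools against 43.2, 46.9 and 41.1 CPM in PB-exposed ovaries. Its groups did not overlap, as in 10.7% of all genes, and the log2 fold change was -0.29 (SE 0.06, FDR = 0.888). The other 3 were Tcf3, Msx2 and Tfap2c, with log2 fold changes of -0.19, -0.30 and -0.49. The most abundant genes of the list per length were Sub1, Tcf12 and Kitl. Tbpl2, the oocyte form of the TATA-binding protein, was at or under the floor in every pool.

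Genes that oocytes use from follicle formation onward were examined beside the zona genes. Of 41 listed, 38 were named in the data, 21 passed the filter, and 12 did not exceed the floor in any pool. Bmp15, the close relative of Gdf9, had 22, 31 and 40 counts in control and 20, 16 and 27 counts in PB-exposed ovaries, and it was not called. Of the 21, 9 had a log2 fold change above 0 and 12 below, with a median of -0.01. None was called by edgeR or DESeq2, and 2 had an unadjusted p-value under 0.05 with edgeR, beside 4.46% of all genes. Khdc3, a component of the maternal complex of the egg cortex, was measured at 0.140 ± 0.0271 CPM in control against 0.0381 ± 0.0110 CPM in PB-exposed ovaries. Its log2 fold change was -1.86 (SE 0.46, FDR = 0.888), from 12, 20 and 12 counts in control and 5, 3 and 4 counts in PB-exposed ovaries, the latter at or just above the floor. Khdc3 passed the filter through the control pools alone, so it entered the count of 2 through the group where it was higher. For Dppa3, which is also a germ cell marker at this stage, the log2 fold change was -0.52 at the same FDR. The most abundant genes of this list were Zbed3, Cd9 and Uchl1, which other cells also express.

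The wider germ cell programme gave the setting for these values. Of 16 germ cell genes tested, 3 had a log2 fold change above 0 and 13 below, with a median of -0.10. None was called by edgeR or DESeq2, and 6 had an unadjusted p-value under 0.05 with edgeR, beside 4.46% of all genes, all lower in PB-exposed ovaries. Kit, Tfap2c and Dppa3 were already counted in the lists above, and the others were Dppa4 (-0.73), Pou5f1 (-0.58) and Dnd1 (-0.55). The most abundant genes of the list were Dazl, Tex101 and Mael. Of 25 meiotic prophase genes tested, 23 had a log2 fold change above 0 and 2 below, with a median of 0.33. None was called by edgeR or DESeq2, and the numbers with an unadjusted p-value under 0.05 were 0 and 1. Their summed level was 1876, 1711 and 1874 CPM in control pools against 2610, 1370 and 2833 CPM in PB-exposed ovaries, so PB 1 and PB 3 were above and PB 2 below all control pools, as for Taf4b and Figla. Smc1b, Sycp3 and Syce2 were its most abundant genes. Whether the stage or the number of germ cells in a pool contributes to the values of Taf4b and Figla was not tested.

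Markers of other cells the pools could hold were examined in the same way. No marker of any cell type was called by edgeR or DESeq2, with a lowest edgeR FDR of 0.888, and no more than 3 markers of a list had an unadjusted p-value under 0.05. The 8 markers of the supporting cells of the testis, led by Aard, summed to 69.7 ± 4.61 CPM in control against 63.8 ± 0.946 CPM in PB-exposed ovaries. The markers of interstitial cells, led by Tcf21, summed to 785 ± 23.0 and 773 ± 40.1 CPM, and those of the mesonephros, led by Emx2, to 159 ± 7.18 and 156 ± 10.4 CPM. For the endothelium, led by Cdh5, the sums were 352 ± 19.0 and 332 ± 12.0 CPM, and for macrophages, led by C1qa, 58.0 ± 3.50 and 56.5 ± 5.54 CPM. Steroidogenic and adrenal markers, led by Hsd3b1, summed to 60.4 ± 3.21 and 51.1 ± 15.7 CPM. All 5 markers of the surface epithelium, led by Upk3b, had a log2 fold change above 0, and their sum was 298 ± 42.8 CPM in control against 361 ± 40.1 CPM in PB-exposed ovaries. All 7 red cell genes, led by Hbb-bs, had a log2 fold change below 0, with a median of -0.30, and they summed to 23516 ± 8450 CPM in control against 19055 ± 928 CPM in PB-exposed ovaries. The 7 germ cell markers, led by Sycp3, summed to 639.6 ± 97.1 and 666 ± 183 CPM. Outside the germ cell markers, those with an unadjusted p-value under 0.05 with edgeR were Cdkn1b of the pregranulosa cells (0.19 on the log2 scale), Dmrt1 of the testis list (-0.52), Lrrn4 of the surface epithelium (0.63), Tie1 of the endothelium (-0.24) and Hba-a2 of the red cells (-0.77). Of these, the groups did not overlap for Lrrn4 and Hba-a2, a pattern found in 10.7% of all genes tested. Markers with larger p-values also showed it, such as Krt7 and Insl3, higher in PB-exposed ovaries, and Cyp26b1 and Adgre1, lower in them. The part of these cells in the results was not tested. Every marker of these lists exceeded the floor in some pool.

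FIGLA and the SOHLH factors bind E-boxes, so the promoters of the genes were searched for the letters CANNTG, which read the same on both strands, for the E-box CACGTG, which is a special case of them, and for the NOBOX element TAATTG on both strands. RefSeq promoter sequences (GRCm38.p6, from 250 bases before to 50 bases after the start) were held for 6 of the 10 genes, namely Figla, Nobox, Sohlh1, Sohlh2, Lhx8 and Zp3, and not for Taf4b, Gdf9, Zp1 and Zp2. CANNTG was found in 5 of the 6 and in 72.3% of 32851 promoters of the same length. The window of Lhx8, the gene without a match, lies at the start of a transcript that had no count in any pool. That of Sohlh1 lies at the start of NM_001001714.1, with 32.8% of the counts of the gene. XM_006497875.3, with 52.8%, starts 468 bases downstream. Promoters at the other starts were not searched. CACGTG was found in 2 of the 6, Sohlh1 and Zp3, and in 7.15% of all promoters, and TAATTG in 0 of the 6 and in 8% of all. Sohlh1 held 3 copies of CACGTG, and 0.0883% of all promoters held at least as many, a comparison chosen after the matches were seen. The sequences of Figla and Sohlh1, the factors whose start sites are described above, and of Zp3, the zona gene with the most counts, are given with every CANNTG in capitals. They lie at chr6:86016941-86017240 on the plus strand for Figla, chr2:25847199-25847498 on the minus strand for Sohlh1 and chr5:135979855-135980154 on the plus strand for Zp3. The window of Figla overlaps the upstream exon of XM_017321595.1, which runs from 86016494 to 86017020. A match describes the letters and is not evidence of binding.
Figla: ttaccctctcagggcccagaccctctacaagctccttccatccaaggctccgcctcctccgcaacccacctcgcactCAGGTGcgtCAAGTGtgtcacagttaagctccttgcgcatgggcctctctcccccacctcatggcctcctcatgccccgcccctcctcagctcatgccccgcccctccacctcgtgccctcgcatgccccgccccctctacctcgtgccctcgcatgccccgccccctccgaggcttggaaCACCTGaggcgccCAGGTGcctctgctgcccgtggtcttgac
Sohlh1: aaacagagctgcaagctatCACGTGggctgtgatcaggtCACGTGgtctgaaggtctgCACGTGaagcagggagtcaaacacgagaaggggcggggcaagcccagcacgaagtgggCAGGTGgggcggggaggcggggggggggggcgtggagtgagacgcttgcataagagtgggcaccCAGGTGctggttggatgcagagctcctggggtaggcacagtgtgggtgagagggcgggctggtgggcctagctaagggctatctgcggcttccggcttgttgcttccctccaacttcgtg
Zp3: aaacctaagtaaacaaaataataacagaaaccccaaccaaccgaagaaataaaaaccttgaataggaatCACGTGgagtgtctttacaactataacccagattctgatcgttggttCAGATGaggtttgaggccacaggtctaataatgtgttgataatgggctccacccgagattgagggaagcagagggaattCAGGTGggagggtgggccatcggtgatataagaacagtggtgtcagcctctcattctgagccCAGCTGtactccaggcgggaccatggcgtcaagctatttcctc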

How the data were processed

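RNA-seq counts per transcript of 6 pools of E15.5 ovaries were used as deposited by the authors, who aligned reads to mm10 with HISAT2 2.1.0, assembled transcripts with StringTie 1.3.5 and made the counts with its prepDE script. The deposited positions of transcripts and exons (other values, in bases of mm10) come from the authors' annotation. The authors' table of DESeq2 1.30.0 fold changes and p-values and its 6 columns of normalized values were not used here, apart from names and positions. Counts were summed per gene name, and 3.05% to 4.49% of the counts of a pool, from transcripts without a gene name, were left out. TPM used exon lengths.

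The groups were compared with edgeR 4.0.16 and limma 3.58.1 in R 4.3.3 (TMM, filterByExpr at its minimum count (10) and minimum total (15), quasi-likelihood F-test, Benjamini-Hochberg over all features tested), with DESeq2 1.42.0 as an alternative and the R package data.table (version 1.17.8). Called means an FDR of at most 0.05 and a fold change of at least 2. An SE is the size of the log2 fold change divided by the root of F. Python 3.11.15, pandas 2.3.3, numpy 2.4.6 and matplotlib 3.10.9 made the sums, promoter search and figures. The tests of genes and transcripts were tested on simulated data with known changes. For genes, edgeR recovered most of the changes and DESeq2 made more false calls than its FDR threshold allows. For transcripts, edgeR did not recover the changes and most calls of DESeq2 were false. Start sites were not simulated. Other alternatives were size factors, filters, transcript choice, leaving out each pool and a replicate block.

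All 10 genes are named, with each of their transcripts that passed the filter or held at least 5% of the counts, the 3 most abundant genes of each companion list and those with an unadjusted p-value under 0.05, and the most abundant gene of each marker list. Taf4, Tbpl2, Bmp15, XM_006526282.2, the upstream transcripts of Figla and the markers with an unadjusted p-value under 0.05 were named after their values were seen. The same holds for Krt7, Insl3, Cyp26b1 and Adgre1. The genes and lists were chosen with earlier results of these data known, and start sites and further germ cell denominators were added after seeing the data.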

Additional observations from a re-analysis of the deposited data

How the results depend on the processing

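No gene sum of the 10 genes was called under any alternative run, nor was any gene of the companion lists with edgeR or DESeq2. Figla and Taf4b were above 0 and Sohlh1 below 0 throughout, with log2 fold changes of 0.08 to 0.60, 0.12 to 0.54 and -0.45 to -0.16. Without each pool in turn, Nobox ranged from -0.28 to 0.54, Sohlh2 from -0.29 to 0.082, Lhx8 from -0.29 to 0.16 and Gdf9 from -0.097 to 0.033. Among transcripts the same range was -0.073 to 0.44 for NM_012013.2, -2.63 to 0.53 for NM_130869.3, -0.19 to 0.67 for XM_006497874.2 and -0.29 to 0.079 for NM_028937.3, and for their start sites -0.074 to 0.44, -2.63 to 0.52, -0.20 to 0.68 and -0.29 to 0.076. The cause was not tested.

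Whether the numbers of the pools pair them was not settled. The correlations of control and PB pools with the same number were 0.0934, 0.147 and -0.0177, and those with different numbers lay between -0.167 and 0.0963. Values were centred within each group of 3 pools, so these correlations depend on each other and cannot decide the question. With a replicate block, Nobox was -0.077, and 0 genes, 0 transcripts and 0 start sites were called.

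Of all genes, 3 were called, against 11 with DESeq2, 8 with known transcripts only, 5 with no fold threshold and 3 to 9 without each pool in turn. Of all transcripts, 17 were called, against 1172 with DESeq2, 39 where every pool of a group had to reach 10 counts and 0 to 19 without each pool. Of start sites, added after seeing the data, 11 were called, against 651 with DESeq2, 5 with no filter and 3 to 25 without each pool. DESeq2 called 2 transcripts and 2 start sites of the 10 genes, and edgeR 0 and 0. The 2 start sites are those of the 2 transcripts. The cause was not tested. With the length of the longest RefSeq transcript, Figla had 7.60 TPM and Taf4b 21.8 TPM. For ratios to germ cell genes, the share of all genes without overlap was not taken, so the counts that follow are a description. Relative to Ddx4 and Dazl, the groups did not overlap for 1 of the 7 genes. In alternatives added after seeing the data this was 2 relative to the sum of all germ cell markers, 2 relative to Ddx4, 0 relative to Dppa3, 0 relative to Dnd1, and 1 relative to each of Dazl, Mael, Pou5f1 and Sycp3.

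Depth is a limit for the zona genes and Nobox, whose counts reached or came close to the floor of 3 counts. With 3 pools in a group, the differences in Figla and Taf4b depend on which PB pool is left out, and small differences were not resolved.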
